A study of Mus musculus with 4 samples.

Results

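Ikaros family zinc finger genes and other transcription factors of lymphoid priming were measured in haematopoietic progenitors of the mouse foetal liver. The set comprised every probe set annotated to exactly 1 of Ikzf1, Ikzf2, Ikzf3, Bcl11a, Mef2c and Satb1, which gave 6 of the 18193 genes with a probe set of their own and 25 of the 45037 probe sets that were not controls. These were 2 for Ikzf1, 3 for Ikzf2, 3 for Ikzf3, 7 for Bcl11a, 5 for Mef2c and 5 for Satb1. A probe set is a group of short array probes read together as 1 value, and its intensity is given here on the log2 scale, on which 1 unit is a doubling. Of the 25, 21 averaged more than the overall median of the arrays, a log2 intensity of 6.23, and no detection calls were used here.

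All 4 samples came from female embryos at E13.5 of genotype Hes1 GFP/WT, so that 1 allele of Hes1 carried a GFP reporter in both groups. Foetal liver cells without lineage markers that bore cKit and Sca1 (LSK cells, the fraction that holds stem cells and multipotent progenitors) were divided by GFP. The HES1-GFP negative label was given to 3 arrays and the HES1-GFP positive label to 1. Each was made from 5 ng of total RNA, which was then amplified, and the median intensities of the arrays were 74.8 to 76.1. Whether the negative replicates are separate animals or sorts is not in the labels, and p-values then measure only the spread between these samples, which may be technical. Hes1 went against the labels, at 8.78, 9.07 and 6.70 in negative replicates 1, 2 and 3 and 6.57 in the array labelled positive, and the groups are therefore called by their labels throughout. Of the sorting markers, Kit was at 9.90, 9.72 and 9.68 in negative replicates 1, 2 and 3 and 10.13 in the array labelled positive, and the pan-haematopoietic gene Ptprc at 11.77, 11.31, 11.06 and 11.26 in the same order. Ly6a, which encodes Sca1, had no probe set of its own here.

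Ikaros (Ikzf1) and its relatives Helios (Ikzf2) and Aiolos (Ikzf3) are DNA-binding proteins with zinc fingers that pair with each other and recruit the NuRD chromatin remodelling complex. Ikaros and Mef2c open the lymphoid programme in multipotent progenitors, Bcl11a is needed for lymphoid development and silences embryonic globin genes in red cells, and Satb1 organizes chromatin loops in stem cells and lymphocytes. Aiolos acts mainly in committed B and T cells, whereas Helios is found in stem cells and in some T cells. Ikaros and RBPJ, the DNA-binding partner of Notch, recognize the same short core sequence, and Hes1 is a target gene of Notch.

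The members lay lower in the array labelled positive than in negative replicates 1 and 2, and on both sides of negative replicate 3. The array labelled positive was below replicate 1 in 21 of the 25 probe sets (46.6% of all probe sets), below replicate 2 in 23 (51.4% of all) and below replicate 3 in 14 (53.1% of all). The median difference of the members was -0.78 log2 units against replicate 1, -0.67 against replicate 2 and -0.08 against replicate 3, where the medians of all probe sets were 0.029, -0.012 and -0.023. At least 1 log2 unit below replicate 1 were 6 members (6.77% of all probe sets), below replicate 2 there were 8 (6.4% of all) and below replicate 3 there were 0 (4.04% of all). The count against replicate 3 alone is thus close to the background, and those against replicates 1 and 2 are not.

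No member gene separated the labelled groups by the test. limma, fitted over all probe sets with Benjamini-Hochberg adjustment, called 0 of the 25 members and 0 of all probe sets (0%), and the lowest adjusted p of a member was 0.959. Before adjustment, limma had 2 members under 0.05 (8%, against 4.51% of all probe sets). Both were lower, 1 of Ikzf2 and 1 of Mef2c, where 1.43% of all probe sets were lower at that threshold. The single positive array has no spread of its own and was assumed to vary like the negative arrays, and with 1 array against 3 an exact one-sided permutation p cannot be under 0.25. Against the range of the 3 negative arrays, the array labelled positive was below in 12 members (23.6% of all probe sets), above in 1 (23.2% of all) and within it in 12. None of the 25 lay at least 1 log2 unit outside that range (0.631% of all were so far below and 1.35% so far above). The median difference from the negative mean was -0.57 log2 units, and -0.011 over all probe sets. Several probe sets read the same gene, and in Bcl11a (2 probe sets), Mef2c (3) and Satb1 (2) some were designed on the same sequence record, so these counts are not counts of independent measurements.

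**Figure D1:**
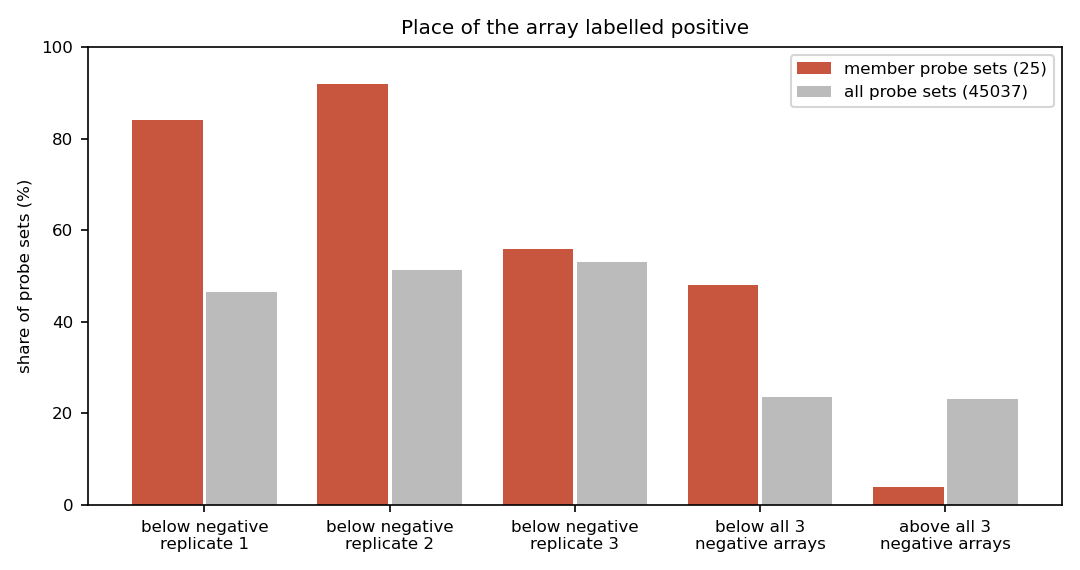
Share of the 25 member probe sets and of all 45037 probe sets in which the array labelled HES1-GFP positive lay below each negative replicate, below all 3 or above all 3, as bars in percent. Members exceed the background against replicates 1 and 2 (84% and 92%) and are near it against replicate 3 (56%).

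Negative replicate 3 itself lay below replicates 1 and 2 in 20 of the 25 members (29.8% of all probe sets) and above both in 2 (37.5% of all). Its median difference over the members was -0.64 log2 units from replicate 1 and -0.53 from replicate 2, against -0.06 between replicates 2 and 1. The spread that limma used for the members therefore holds this distance. Without replicate 3 the array labelled positive was below both other negative arrays in 21 members (32.5% of all probe sets) and above both in 2 (34.4% of all), where 2 arrays span less than 3. limma then still called 0 members, and the leading probe sets of Ikzf2, Bcl11a and Mef2c differed by 1.02, -0.80 and -0.61 log2 units. Hes1 was likewise lower in replicate 3 than in replicates 1 and 2.

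**Figure D2:**
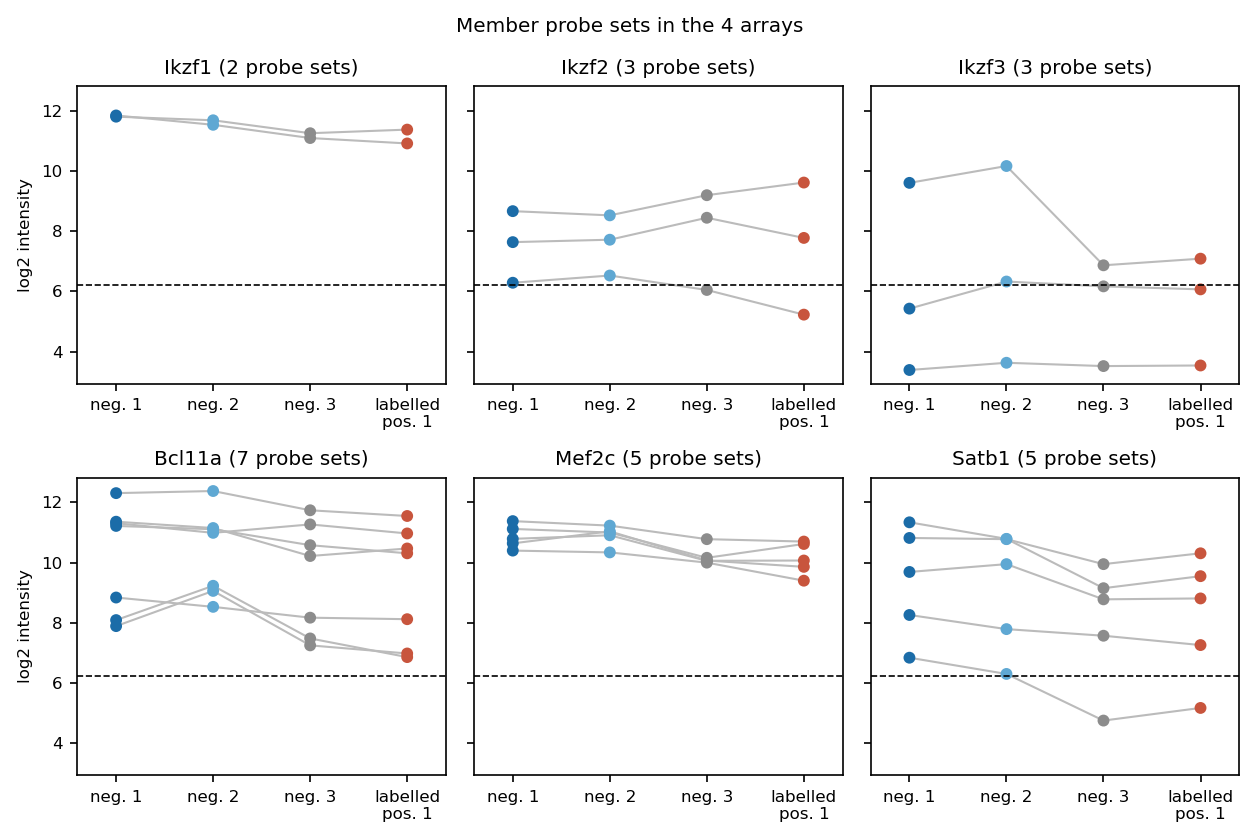
Log2 intensity of every member probe set (y axis) in negative replicates 1, 2 and 3 and in the array labelled positive (x axis), 1 panel per gene. Grey lines join the values of 1 probe set and the dashed line marks the overall median, 6.23. Most probe sets of Bcl11a, Mef2c and Satb1 are higher in replicates 1 and 2 than in replicate 3 or the array labelled positive.

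Ikzf1, which encodes Ikaros, differed little. Its probe set with the higher mean, 1421303_at, was at 11.81, 11.69 and 11.26 in negative replicates 1, 2 and 3 and at 11.38 in the array labelled positive. That value lay within the negative range, 11.59 ± 0.29 (SD, n = 3), with a difference of -0.20 log2 units (SE 0.31). The other probe set, 1436312_at, was at 11.85, 11.54 and 11.10 against 10.92, just below the range, with a difference of -0.57 (SE 0.37). In linear intensity this was 1941 against 3702, 2979 and 2190. Both probe sets were highest in replicate 1, and they placed the array labelled positive on opposite sides of replicate 3, by 0.12 and -0.17. Averaged, Ikzf1 was at 11.83, 11.61 and 11.18 against 11.15, a difference of -0.39, and without replicate 3 the difference in 1421303_at was -0.37.

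Ikzf2, the Helios gene, had probe sets that disagreed. The one with the highest mean, 1437542_at, was at 8.67, 8.53 and 9.20 in the negative replicates and 9.62 in the array labelled positive. It was the only member above the negative range, 0.82 log2 units (SE 0.35) over the negative mean, or 1.77 times on the linear scale. The next, 1421643_at, was at 7.64, 7.72 and 8.45 against 7.78, with negative replicate 3 the highest. The dimmest, 1456956_at, was at 6.29, 6.53 and 6.05 against 5.23, with a difference of -1.06 (SE 0.28) and a limma adjusted p of 0.959. Like its value in the array labelled positive, its mean over the arrays was under the overall median of 6.23. With an offset of 50 added before log2, its difference was -0.56. Averaged over the 3 probe sets, Ikzf2 was at 7.53, 7.59 and 7.90 against 7.54, a difference of -0.13. A direction for Ikzf2 therefore depends on the probe set. In the 2 brighter probe sets negative replicate 3 lay above replicates 1 and 2, which no other member showed.

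Ikzf3, which encodes Aiolos, had the widest spread among the members, and most of it lay inside the negative group. Probe set 1436649_at was at 9.61 and 10.17 in negative replicates 1 and 2, at 6.87 in replicate 3 and at 7.09 in the array labelled positive. On the linear scale these are intensities of 783, 1151, 117 and 137. The array labelled positive differed by -2.52 and -3.08 log2 units from replicates 1 and 2 and by 0.22 from replicate 3. The difference from the negative mean of 8.88 ± 1.77 (SD, n = 3) was -1.79 with a standard error of 1.49. The other probe sets showed no such pattern. 1441088_at was at 5.43, 6.33 and 6.17 against 6.07, and 1453378_at at 3.39, 3.63 and 3.52 against 3.54, and both were dimmer on average than the overall median. Averaging the 3 probe sets reduced the difference to -0.55, and without replicate 3 that of 1436649_at was -2.80 with a limma adjusted p of 0.574.

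Bcl11a was lower than the negative mean in all 7 probe sets and below the negative range in 6 of them. Differences ran from -0.21 to -1.40 log2 units with a median of -0.60. The probe set with the highest mean, 1426552_a_at, was at 12.31, 12.38 and 11.74 in the negative replicates and 11.55 in the array labelled positive, a difference of -0.60 (SE 0.35). Probe sets 1456632_at and 1453814_at were highest in replicate 1, followed by replicates 2 and 3 and the array labelled positive, at 11.22, 11.11, 10.58 and 10.31 in the first and 8.84, 8.53, 8.17 and 8.12 in the second. In 1457072_at the array labelled positive, at 10.47, lay above replicate 3, at 10.22, and below replicates 1 and 2, at 11.36 and 11.15.

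The Bcl11a probe sets 1447334_at and 1447335_x_at, designed on the same record, varied most. The first was at 8.09, 9.23 and 7.48 against 6.86, and the second at 7.89, 9.06 and 7.25 against 6.98, with differences of -1.40 (SE 0.77) and -1.09 (SE 0.79). Replicates 1 and 2 lay 1.14 and 1.17 log2 units apart in them, more than in any other member. At the other end, 1419406_a_at was at 11.31, 10.99 and 11.27 against 10.97, a difference of -0.01 from replicate 2. It was the only Bcl11a probe set in which negative replicate 3 was not below replicates 1 and 2. Averaged over its probe sets, Bcl11a was at 10.14, 10.35 and 9.53 in the negative replicates and at 9.32 in the array labelled positive.

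Mef2c, a MADS box factor of lymphoid and myeloid fate, was lower than the negative mean in all 5 probe sets, with differences of -0.84 to -0.14 log2 units, and below the negative range in 3. Probe set 1421028_a_at was at 10.40, 10.34 and 10.00 in the negative replicates and 9.40 in the array labelled positive. Its difference of -0.84 (SE 0.26) had a limma adjusted p of 1.00. There the array labelled positive differed by -0.60 from its nearest negative array, further outside the range than in the other Mef2c probe sets. 1421027_a_at was at 10.64, 11.04 and 10.07 against 9.86, a difference of -0.72.

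The other 3 Mef2c probe sets, designed on 1 record, did not agree on replicate 3. The array labelled positive differed by -0.08 from replicate 3 in 1451506_at (11.38, 11.23 and 10.78 against 10.70). It was 0.01 above it in 1424852_at (10.79, 10.91 and 10.06 against 10.07) and 0.45 above it in 1451507_at (11.12, 11.00 and 10.16 against 10.62). Against replicates 1 and 2 it was lower in all 5 probe sets, with differences of -1.17 to -0.38 log2 units. Averaged, Mef2c was at 10.86, 10.90 and 10.22 in the negative replicates and at 10.13 in the array labelled positive.

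Satb1 was lower than replicates 1 and 2 in all 5 probe sets, but below replicate 3 in only 1 of them. The probe set with the highest mean, 1416008_at, was at 10.82, 10.78 and 9.95 in the negative replicates and 10.31 in the array labelled positive. 1416007_at, designed on the same record, spread further, at 11.34, 10.79 and 9.15 against 9.55, or intensities of 2590, 1772 and 569 against 749. Its difference from the negative mean was -0.88 with a standard error of 0.97. 1436182_at was at 9.69, 9.95 and 8.78 against 8.81, and the dim 1439315_at at 6.84, 6.30 and 4.75 against 5.17. In these 4 probe sets the array labelled positive lay 0.02 to 0.42 log2 units above replicate 3. The exception was 1439449_at, at 8.26, 7.79 and 7.57 against 7.26, where it was lowest. Averaged, Satb1 was at 9.39, 9.12 and 8.04 against 8.22, within the negative range of 8.85 ± 0.71 (SD, n = 3), a difference of -0.63 where 1416008_at alone gave -0.21. Without replicate 3 the difference in 1416008_at was -0.49.

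**Figure D3:**
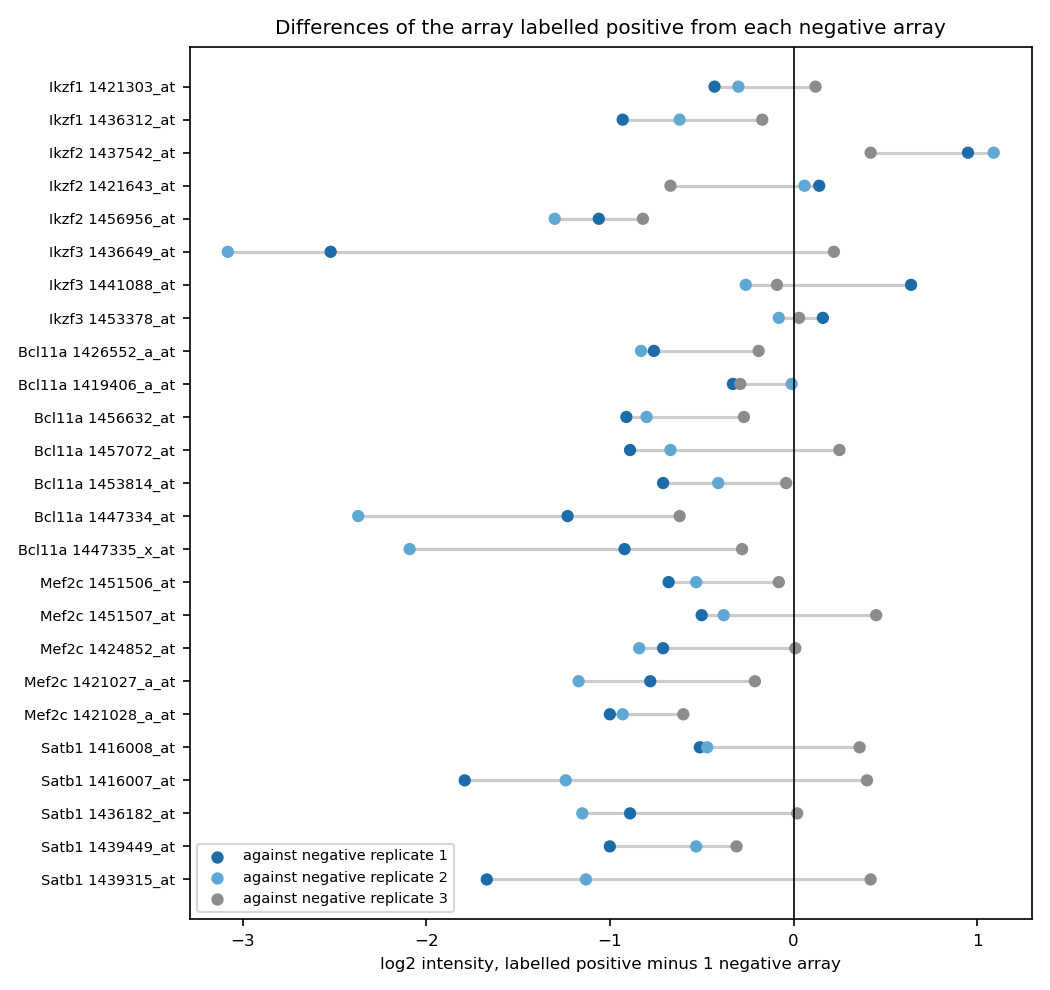
Log2 intensity of the array labelled positive minus that of each negative replicate (x axis) for the 25 member probe sets (y axis), with a grey bar from the lowest to the highest difference. Points for replicates 1 and 2 lie left of 0 in all probe sets of Ikzf1, Bcl11a, Mef2c and Satb1, and points for replicate 3 lie between -0.82 and 0.45.

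RefSeq promoter windows (GRCm38.p6, 250 bases before to 50 after an annotated start) were found for 4 of the 6 members, Ikzf1, Bcl11a, Mef2c and Satb1. Their 11 windows were searched for TGGGAA, the core read by both Ikaros and RBPJ, on both strands (TTCCCA on the reverse). It was present in 3 of the 11 windows, 1 of Bcl11a and 2 of Satb1, where 25.6% of all 32851 windows of this length held it. TGACCA, the motif of Bcl11a (TGGTCA on the reverse), was in 0 of the 11 (13.6% of all windows), and TGTGGT, read by Runx factors (ACCACA on the reverse), in 0 (16.8% of all). A match is a run of letters and not a measured site. Ikzf2 and Ikzf3 had no window to compare, and a link between motifs and the members' values was not tested. The upstream parts of the Bcl11a window and of the Satb1 window with the core before its start are shown because they hold this core, in capitals. Both starts lie inside the annotated extent of their genes, 4131 and 21236 bases from its 5′ edge, and are not the outermost.
Bcl11a, chr11:24080445-24080694, plus strand: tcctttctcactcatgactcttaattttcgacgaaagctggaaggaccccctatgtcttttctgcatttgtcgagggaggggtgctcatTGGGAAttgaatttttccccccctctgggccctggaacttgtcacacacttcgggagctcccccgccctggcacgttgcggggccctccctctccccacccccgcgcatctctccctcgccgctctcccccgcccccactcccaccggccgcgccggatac
Satb1, chr17:51812055-51812304, minus strand: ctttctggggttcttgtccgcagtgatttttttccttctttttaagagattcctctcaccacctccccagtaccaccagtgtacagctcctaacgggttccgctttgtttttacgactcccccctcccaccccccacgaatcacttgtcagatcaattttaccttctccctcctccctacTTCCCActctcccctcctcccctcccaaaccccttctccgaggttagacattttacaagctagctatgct
Counted from the start, the core's first base was at -161 for Bcl11a, on the gene's strand, and at -70 for this Satb1 start, on the opposite strand. The other Satb1 match was at 18, after another start.

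The nearest relatives of the members did not move as a block. Ikzf4 (Eos), the first of the other family genes, had the array labelled positive at 8.48 against 6.82, 7.28 and 6.28 in probe set 1457342_at and at 6.06 against 4.24, 4.79 and 5.37 in 1460664_at. In the remaining probe set, 1438274_at, it was at 4.87 against 5.61, 5.82 and 4.44. Ikzf5 (Pegasus) was at 8.50 against 8.03, 8.07 and 7.98 in 1436554_at and at 7.44 against 8.05, 7.17 and 7.54 in 1429431_at. Both genes thus had probe sets on either side of the negative mean. Of 4 paralogs measured, Mef2b was above the negative range (7.32 against 6.64, 6.73 and 6.85) and Mef2d below it (10.87 against 11.43, 11.47 and 10.98), while Mef2a and Bcl11b lay within. Bcl11b, the T cell relative of Bcl11a, chosen here after its values were seen, was at 9.23 and 8.61 in negative replicates 1 and 2, 4.58 in replicate 3 and 4.78 in the array labelled positive. For these and the lists below, each gene was read by its probe set with the highest mean, and limma called 0 of 18193 genes (0%).

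Subunits of the NuRD complex, the partner of Ikaros, were placed against the negative arrays about as all genes were. Of 13 measured, 3 were above the negative range (23.6% of all genes), 3 below it (23% of all) and 7 within, and their median difference was 0.03 log2 units, against -0.001 over all genes. Among them Chd3, a remodelling ATPase, was at 8.38 against 7.75, 8.17 and 7.60, and Gatad2b, a scaffold subunit, at 11.63 against 11.91, 12.00 and 11.72. Averaged over its 5 probe sets, Gatad2b differed by -0.02 log2 units from the negative mean, against -0.24 in this one. Mbd3, a methyl-CpG-binding domain protein, was at 8.37 against 8.46, 8.84 and 8.54. Of 14 transcription factors that act with the members, 11 lay within the range (9714 of all 18193 genes), and the median difference was -0.10 log2 units. Foxo1, a factor that switches on early B cell genes, lay within it, at 9.57 against 10.85, 11.09 and 9.37, and was chosen after its values were seen. The 2 below it were the B cell factors Ebf1 (5.90 against 10.13, 9.97 and 6.61) and Pax5 (6.11 against 10.39, 10.62 and 6.41), whose differences of -3.01 and -3.03 became -1.89 and -1.91 when their probe sets were averaged. Gfi1, a repressor of myeloid genes, was above it, at 10.73 against 10.30, 10.28 and 10.29. Without replicate 3, 9 of these 14 factors and 5 of the 13 NuRD subunits were below the remaining range (31.4% of all genes), and 3 of each were above it (36.1% of all). limma called 0 genes of either list.

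Genes of the lymphoid programme, several of them targets of the members, also lay lower against replicates 1 and 2. Of 15 measured, 10 were below the negative range (23% of all genes), 0 above it (23.6% of all) and 5 within. Their median difference was -0.98 log2 units, and limma called 0. Set against negative replicates 1, 2 and 3 singly, the median was -2.11, -1.83 and -0.31. Without replicate 3, all 15 were below the remaining range (31.4% of all genes). Ccr7, which guides lymphocytes to lymph nodes, was the 1 gene at least 1 log2 unit below all negative arrays, at 5.52 against 8.99, 9.15 and 8.15. Il7r, the receptor for the lymphoid growth factor IL-7, stood at 8.39 against 12.11, 11.75 and 8.89, and Cd79a and Blnk of B cell receptor signalling differed by -3.29 and -2.23. This list overlaps in content with genes already known to be low in these arrays and is no independent support for the members.

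Globin genes, of which Bcl11a silences the embryonic ones in red cells, lay on both sides of the negative range. Of 7 genes in the list of globins and their regulators, 4 were above the negative range (23.6% of all genes), 1 below it (23% of all) and 2 within, with 0 called by limma. Hbb-y, an embryonic beta globin, was at 10.17 against 8.32, 6.65 and 9.41, and Hbb-bh1, another, at 7.91 against 6.14, 6.34 and 7.85. Sox6, a partner of Bcl11a in globin silencing, was at 8.71 against 6.27, 7.96 and 8.68, and Hba-x, the embryonic alpha globin, at 9.04 against 9.64, 9.28 and 9.80. For Hbb-bh1 and Sox6 the array labelled positive exceeded replicate 3 by 0.05 and 0.03. Averaged over their probe sets, Hbb-bh1 and Hbb-y differed by 2.06 and 1.56 log2 units from the negative mean, against 1.13 and 2.05 in the probe sets named, and beta globin genes are close copies whose probes may share signal.

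Markers of several other cell types, though not every gene of each list, moved with the members across the arrays. In sorted bulk RNA, fewer cells of a type and less RNA per cell cannot be told apart. All 8 B lineage markers were already in the lymphoid programme or partner factor lists, so their list adds no separate genes. Bcl11b of the T list, Klf1 and Hbb-bh1 of the erythroid list and Flt3 of the sort list also recur. The summed intensity of 8 B lineage markers was 21601 and 21539 in negative replicates 1 and 2, 3841 in replicate 3 and 3869 in the array labelled positive. For 7 T and innate lymphoid markers the sums were 2138, 2004, 497 and 440 in that order, and for 10 macrophage markers 25726, 24039, 3782 and 4169. In contrast, 6 granulocyte and monocyte markers summed to 14738, 15399, 27730 and 26773. Csf1r of this list went against the sum, at 12.88, 12.97 and 12.13 against 11.63. Below the negative range were 5 of 8 B lineage, 4 of 7 T and innate, 6 of 10 macrophage, 2 of 5 mast cell and 7 of 8 endothelial markers (23% of all genes), and of these lists 1 gene, the endothelial Tek, was above it. Of the markers, Cd3e, Il2rb, Cd163, Fcer1a, Krt8, Ppbp and Ms4a2 were dimmer than the overall median, and without detection calls none can be called present or absent. The part of these cell types in the members' values was not tested.

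Markers of the remaining types lay on both sides. Above the negative range were 3 of 6 granulocyte and monocyte, 2 of 7 stem cell, 2 of 7 erythroid, 2 of 6 megakaryocyte, 2 of 8 hepatoblast and 2 of 5 sort genes (23.6% of all genes), and below it 1 of each of the granulocyte, megakaryocyte and sort lists. The summed intensity of 7 stem cell markers was 6202, 5828 and 6520 in the negative replicates and 6759 in the array labelled positive. For 7 erythroid markers the sums were 17986, 18580, 21608 and 21297, for 6 megakaryocyte markers 2333, 2455, 1459 and 2019, and for 8 hepatoblast markers 2586, 1908, 3168 and 3303. A sum is carried by its brightest genes. In the megakaryocyte list Pf4 followed it (10.46, 10.65 and 9.10 against 10.05), whereas Itga2b did not (7.73, 8.12 and 8.64 against 8.55). In the hepatoblast list Krt18 followed it (8.56, 8.25 and 9.51 against 9.88), whereas Alb did not (8.98, 8.29 and 7.22 against 7.62). Mast cell markers summed to 7453, 7501, 1971 and 1720, and endothelial markers to 5373, 5301, 3321 and 2709. The 5 measured genes of the LSK sort list summed to 14079, 11461, 12755 and 12666. Most members thus shared with the lymphoid and macrophage lists their higher values in replicates 1 and 2. In the mast cell list this held for Cpa3 and Hdc, which gave most of the sum, and for the dim Fcer1a. Mcpt8 went the other way, at 5.91, 6.24 and 7.78 against 7.55, and Ms4a2 had no such order (5.53, 6.31 and 6.29 against 6.17). Of the endothelial list, Cdh5, Pecam1, Kdr and Lyve1 were higher in both replicates 1 and 2 than in replicate 3. Emcn was highest in replicate 3 (8.37, 8.31 and 9.19 against 8.10) and Tek in the array labelled positive (6.19, 6.04 and 6.72 against 7.36). Esam (7.86, 7.39 and 7.63 against 6.46) and Egfl7 (10.91, 11.32 and 10.93 against 10.83) had no such order. Of the sort list, Flt3 (12.12, 11.95 and 11.63 against 11.07) was also higher in replicates 1 and 2, whereas the summed intensity of the list had no such order. For Ptprc the array labelled positive differed by -0.52 and -0.05 from replicates 1 and 2 in the leading probe set. Averaged over its 2 probe sets, Ptprc differed by 0.25 from the negative mean.

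**Figure D4:**
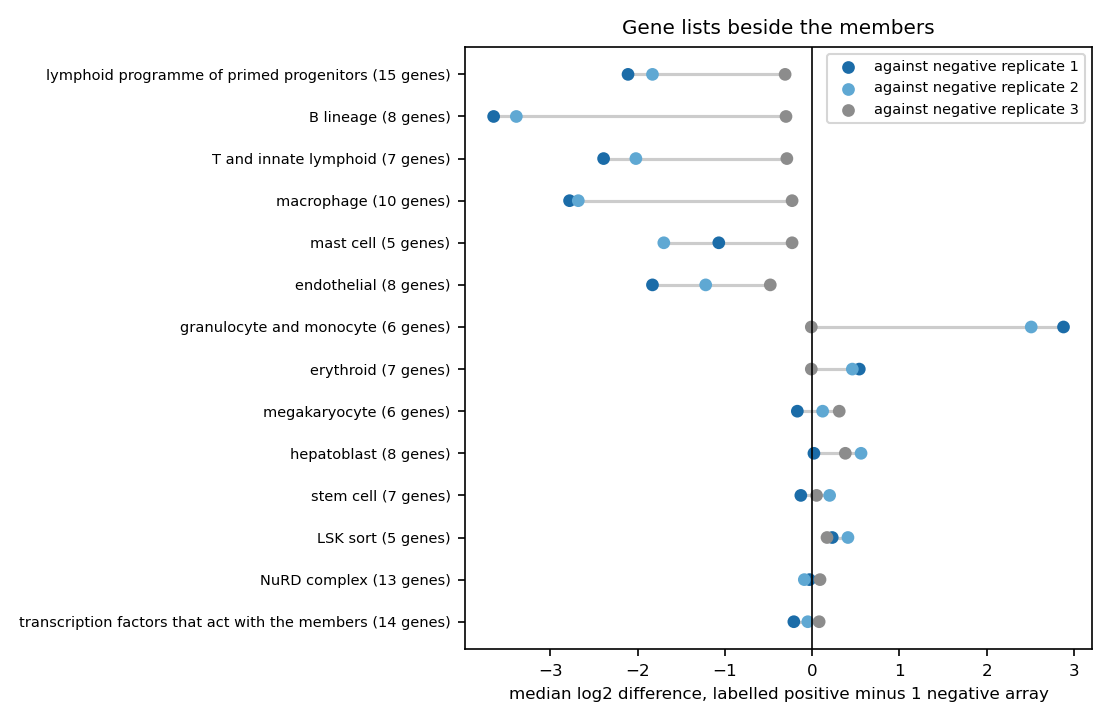
Median log2 difference of the array labelled positive from each negative replicate (x axis) for gene lists named at left with the number of genes measured. The lymphoid, macrophage, mast cell and endothelial medians are below 0 against replicates 1 and 2 and between -0.48 and -0.23 against replicate 3, and the granulocyte and monocyte median is 2.88, 2.51 and -0.01.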

How the data were processed

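Per the labels' protocols, total RNA was extracted with a column kit and 5 ng was amplified and labelled with biotin as cDNA. Per the submitters' processing notes, the authors used RMA; its version is not given in the sources used here. As deposited, the intensity of a probe set is linear, from 4.27 to 27451.5, and log2 was taken with no offset. RMA equalizes the arrays, which hides any difference in RNA content between cells. Of 45101 probe sets, 64 controls were left out, 34945 carried 1 gene symbol, 932 several and 9160 none. Of those with 1 symbol, 34741 matched the RefSeq gene table by gene ID.

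limma 3.58.1 (R 4.3.3; lmFit, eBayes, two-sided, Benjamini-Hochberg, threshold 0.05) compared 1 positive with 3 negative arrays over 45037 probe sets, with 2 residual and 1.8 prior degrees of freedom. The fit was tested on simulated data in which all 4 arrays had the same independent noise. That cannot check the assumption that the positive array varies like the negative ones. The number of arrays limits the precision. The members and lists were chosen with earlier results of these data known. Named genes were all members, Hes1, up to 4 genes of each related list with the largest difference outside the negative range, and the 3 genes most like each member whose leading probe set ranged over at least 1 log2 unit. Markers of the sort and of other cell types, Mef2a, Bcl11b and Foxo1 were named outside this rule. The lists were other Ikaros genes, paralogs, NuRD, the lymphoid programme, partner factors, globins and 11 sets of cell type and sorting markers. Alternatives were cyclic loess, a level filter, trend and robust priors, an offset of 50, 1 or averaged probe sets per gene, and leaving out each negative array.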

Additional observations from a re-analysis of the deposited data

How the results depend on the processing

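limma called 0 members and 0 probe sets or genes under each alternative run, with 2032 of all probe sets at an unadjusted p under 0.05 on the values as deposited. Members below the negative range numbered 12 of 25 and those above it 1. Leaving out each negative replicate in turn gave 12 to 21 below (31% to 34.5% of all probe sets, against 23.6% with all arrays) and 1 to 2 above (30% to 34.4%, against 23.2%). With the probe set of the highest mean per gene 2 of 6 genes were below (23% of all genes), and with averaged probe sets 3 of 6 below (23.1%) and 0 above (24%), since 1 value per gene replaces several. Of 183 refitted member differences, 178 kept their direction and 5 reversed. The level filter, the trend and robust priors and the highest-mean probe set leave a difference unchanged. Their refits are among those counted as kept and could not reverse, so these counts do not measure stability. With averaged probe sets Ikzf2 turned to -0.13. Without negative replicate 3 the Ikzf2 probe set 1421643_at turned to 0.10. Without negative replicate 1 the Ikzf3 probe sets 1441088_at and 1453378_at turned to -0.18 and -0.03 and the Mef2c probe set 1451507_at to 0.04. Over all 3 such refits these probe sets ranged from -0.31 to 0.10 (1421643_at), from -0.18 to 0.27 (1441088_at), from -0.03 to 0.09 (1453378_at) and from -0.44 to 0.04 (1451507_at). None of these differences passed the test. No paired analysis was possible, because there is 1 positive array and the labels name no pairs. Without detection calls, the 4 member probe sets below the median level are the least certain.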

Other observations

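Among 3191 named genes above the median level that ranged over at least 1 log2 unit, those closest to the Ikzf3 probe set 1436649_at were Stab1, Tox2 and Mertk. Likeness was the root mean square difference of the 4 log2 values after each gene was centred on its own mean, and it was 0.124, 0.127 and 0.128 log2 units. Stab1, a scavenger receptor of macrophages and sinusoidal endothelium, was at 7.36, 7.87 and 4.89 in the negative replicates and 4.97 in the array labelled positive. Mertk, a receptor for dying cells on macrophages, was at 8.32, 8.78, 5.79 and 5.98 in the same order, and Tox2, a nuclear factor of the TOX family, at 8.77, 9.19, 5.71 and 5.96. All 3 share with 1436649_at a higher value in replicate 2 than in replicate 1. They were chosen for likeness in these same values, so this order is no separate support. The other Ikzf3 probe sets were not compared in this way. With 4 arrays the likeness is a description of these libraries only.

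The genes closest to the Ikzf2 probe set 1437542_at were Limk2, a kinase of the actin cytoskeleton, Cltb, a clathrin light chain, and Znhit3, a zinc finger protein, at distances of 0.042, 0.050 and 0.054 log2 units. Limk2 was at 7.88, 7.75 and 8.31 in the negative replicates and 8.78 in the array labelled positive. Leading probe sets of Ikzf1, Bcl11a, Mef2c and Satb1 ranged over 0.55, 0.83, 0.68 and 0.87 log2 units and were not compared in this way.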
